A study of Mus musculus with 9 samples.

Results

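Endothelial identity and leukocyte adhesion genes were followed in mouse heart RNA as 10 rows of a deposited count matrix of 22851 genes. The genes were picked by symbol, 6 that mark endothelial cells (Pecam1, Cdh5, Tie1, Emcn, Egfl7 and Esam) and 4 that endothelial cells use to hold leukocytes (Icam1, Vcam1, Sele and Selp), and all 10 were found. Male mice, C57BL/6 in the labels and C57BL/6J in the study's methods, aged 6 to 8 weeks at the start, formed 3 groups with 3 libraries each, and no group carries a genetic change in the labels. The control check group (CK) received citrate buffer, and the diabetic cardiomyopathy model group (DCM) received a single intraperitoneal dose of streptozotocin (180 mg/kg), a toxin of the insulin-producing beta cells, and was sampled 12 weeks later. The spermine group (SPM) received the same streptozotocin plus spermine, a polyamine, at 1 mg/kg, daily for 2 weeks before the toxin and every other day for the 12 weeks after it. No group received spermine without streptozotocin, so spermine was compared within diabetes only. The study's methods describe the RNA both as that of 3 mice per group and as pools of 6 hearts, and p-values therefore measure the spread between libraries whatever each library holds.

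Endothelial cells line every vessel of the heart. They hold one another through junctions built from VE-cadherin (Cdh5), PECAM-1 (Pecam1) and ESAM (Esam), carry the orphan receptor TIE1 beside its relative TEK, the receptor of the angiopoietins, and cover their surface with sialomucins such as endomucin (Emcn). Egfl7 encodes a secreted factor of the vessel wall. In inflamed vessels the selectins slow leukocytes by binding sugars on ligands such as PSGL-1 (Selplg), E-selectin (Sele) after new synthesis and P-selectin (Selp) also from stores. ICAM-1 (Icam1) then holds the beta2 integrins and VCAM-1 (Vcam1) the integrin of Itga4 and Itgb1, and rolling cells stop and cross. Cytokines raise the adhesion genes through NF-kappa-B, whereas the flow-induced factors KLF2 and KLF4 hold them down.

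Total counts per library lay between 29901300 and 39718680, so even the rarest gene, Sele, had 35 to 75 counts in a library. Levels are given as normalized CPM, counts relative to the TMM-scaled library total, and as FPKM, counts per kilobase of length and per total, where genes are compared with each other. The tissue label was heart while the deposited extraction protocol speaks of retinas, and 9 cardiomyocyte genes summed to 54950 to 73850 CPM whereas 8 photoreceptor genes summed to 0.584 to 1.94 CPM. SPM replicate 2 resembled a mixture of the other SPM libraries. It lay between SPM replicates 1 and 3 for 69.0% of 11990 genes with a mean count of at least 50, and a mixture with 44.9% of replicate 1 matched it to 0.88 times the counting noise, while the next smallest of 252 such combinations gave 2.68. Of 2656 genes with no count in SPM replicates 1 and 3, 30 had a count in replicate 2, whereas the same step gave 1162 genes in CK and 614 in DCM. Calls that rest on SPM and were lost without that library are therefore given with their value without it. The share of all genes that pass in that smaller fit is not given here. Fewer libraries also lower the power of a test, so a lost call does not by itself set a gene or list apart. With replicate 2 included, the p-values of the SPM comparisons may be too small, since it may not be independent of the other SPM libraries. GC content also moved with the SPM comparisons. Across genes, Spearman's rho between log2 fold change and transcript GC content was 0.06 for DCM compared to CK, -0.50 for SPM compared to DCM and -0.37 for SPM compared to CK, and mitochondrial genes took 13.7% to 16.2% of the CK counts, 15.5% to 18.9% of the DCM counts and 21.01% to 21.09% of the SPM counts.

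The identity genes were abundant and the selectins rare. Per length, the mean FPKM over the 9 libraries was 126 ± 7.03 (SD, n = 9) for Pecam1, 125.4 ± 18.5 for Cdh5, 67.7 ± 6.19 for Esam and 58.6 ± 13.9 for Tie1. Emcn followed with 18.4 ± 2.01, Egfl7 with 14.0 ± 1.58, Icam1 with 10.4 ± 1.54 and Vcam1 with 8.38 ± 1.43 FPKM. Selp and Sele, at 0.776 ± 0.292 and 0.504 ± 0.152 FPKM, closed the order. Ranges over the 9 libraries did not overlap between Cdh5 and Esam, between Tie1 and Emcn and between Vcam1 and Selp, and they overlapped for every other pair of neighbours. The order was not the same in each group. In CK, Cdh5 was highest at 143 ± 14.8 FPKM (n = 3) with Pecam1 at 124.2 ± 6.99, and their ranges overlapped. In SPM, Pecam1 was highest at 123.4 ± 1.01 FPKM with Cdh5 at 106.3 ± 6.17, and their ranges did not overlap. Tie1 stood above Esam in CK, at 75.0 ± 8.44 and 71.7 ± 8.59 FPKM with overlapping ranges, and below it without overlap in DCM, at 55.5 ± 2.97 and 69.4 ± 2.0 FPKM, and in SPM, at 45.2 ± 2.96 and 62.1 ± 0.274 FPKM.

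**Figure D1:**
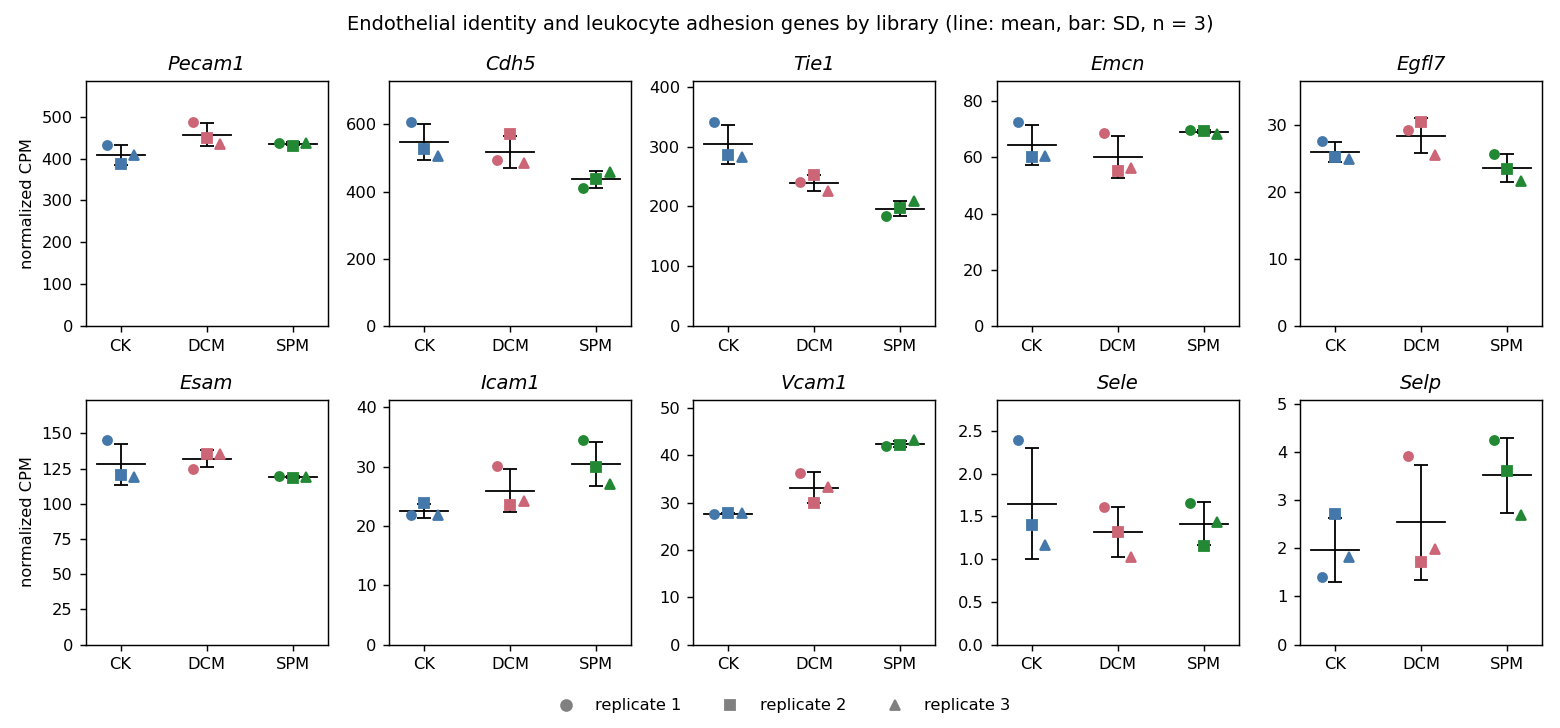
Normalized CPM (y axis, starting at 0 in each panel) of the 10 genes in the 9 libraries, by group, with the mean and SD of 3 libraries. Tie1 steps down from CK to DCM to SPM without overlap, Vcam1 steps up in the same order without overlap, Pecam1 of SPM stays between 431.1 and 438.2, and Sele and Selp spread widely within groups.

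Among the endothelial identity genes Tie1 and Cdh5 fell in at least 1 comparison and the others passed no test. Of the adhesion genes, Icam1 rose in SPM compared to CK alone and Vcam1 in both SPM comparisons. The rise of Vcam1 over DCM was lost after correction for GC content (0.02, adjusted p = 0.893, edgeR) and without SPM replicate 2 (0.36, adjusted p = 0.093, edgeR). All 10 genes passed the filter on low counts in every comparison. In DCM compared to CK, 1 of the 10, Tie1, was lower at an adjusted p below 0.05, where 5.11% of all 14402 genes tested were lower. No gene of the 10 was higher, where 5.28% of all genes were, and 0 of 10 were DEGs (1.5-fold or more, at that adjusted p) beside 4.34% of all genes. At an unadjusted p below 0.05 stood 3545 of all genes. Between SPM and DCM, 1 of the 10, Vcam1, was higher beside 8.87% of 14493 genes, 1, Tie1, was lower beside 7.76%, and 0 were DEGs beside 3.59%. Between SPM and CK, Vcam1 and Icam1 were higher beside 13.0% of 14574 genes, Tie1 and Cdh5 were lower beside 14.3%, and Tie1 and Vcam1 were DEGs beside 9.21%. The libraries of the compared groups did not overlap for 3 of the 10 genes in DCM compared to CK, where 29.3% of all genes did not, for 4 in SPM compared to DCM (39.2%) and for 4 in SPM compared to CK (46.3%). With 10 genes these counts are close to the shares of all genes and carry no statement about the 10 genes as a set. The comparisons share libraries, those of 1 group between any pair of them, so they are not independent of each other.

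The median log2 fold change of the 6 identity genes was -0.02 in DCM compared to CK, -0.20 in SPM compared to DCM and -0.13 in SPM compared to CK. That of the 4 adhesion genes was 0.24, 0.29 and 0.52 in the same order, and that of all genes tested was -0.00, 0.01 and 0.00. Summed levels moved the same ways. The 6 identity genes summed to 1403 to 1627 CPM in CK, 1363 to 1494 CPM in DCM, while SPM had 1247 to 1315 CPM. The 4 adhesion genes summed to 52.5 to 55.7 CPM in CK, 56.4 to 71.9 CPM in DCM, while SPM had 74.3 to 82.2 CPM, without overlap between any of the groups. The identity genes of CK and DCM overlapped, and those of SPM stood below both. After the GC correction the adhesion medians were 0.25, 0.18 and 0.43 and the identity medians 0.01, -0.12 and -0.10.

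**Figure D2:**
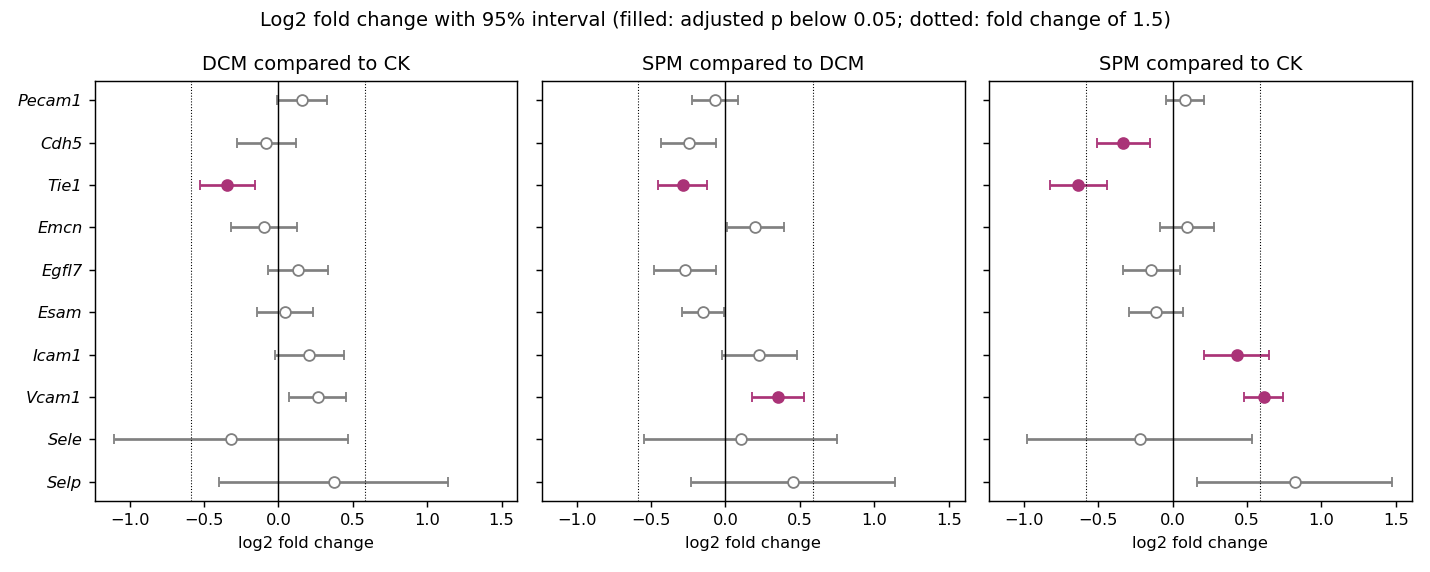
Log2 fold change (x axis) with its 95% interval for the 10 genes in each comparison, where filled points have an adjusted p below 0.05 and dotted lines mark a fold change of 1.5. Tie1 lies below 0 in all 3 panels, Vcam1 lies above 0 in all 3, and the intervals of Sele and Selp are the widest.

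Tie1 was the one identity gene that fell in all 3 comparisons. TIE1 is a receptor tyrosine kinase found almost only on endothelium, which modulates angiopoietin signalling through TEK. The Tie1 level was 342, 287 and 283 CPM in the 3 CK libraries. It was 240.5, 252 and 226 CPM in DCM. It was 184, 197 and 209 CPM in SPM. Every CK library stood above every DCM library, and every DCM library above every SPM library. In DCM compared to CK, Tie1 fell by 0.34 on the log2 scale (SE 0.09, 95% interval -0.53 to -0.16, adjusted p = 0.0246, edgeR quasi-likelihood test with Benjamini-Hochberg adjustment over all genes). It fell further in SPM compared to DCM, by 0.29 (SE 0.07, adjusted p = 0.0297, edgeR). From CK to SPM it fell by 0.63 (SE 0.08, 95% interval -0.82 to -0.44, adjusted p = 0.00172, edgeR), a level 1.55 times lower, which passed the fold limit of 1.5 and made it a differentially expressed gene (DEG). The first call was lost without CK replicate 1 (adjusted p = 0.0855), DCM replicate 1 (0.0665) or DCM replicate 3 (0.0996), edgeR in each case. The second was lost without SPM replicate 2 (fall of 0.286, adjusted p = 0.139, edgeR), without SPM replicate 1 (0.0687), DCM replicate 1 (0.074) or DCM replicate 2 (0.0965), and after correction for GC content, which left a difference of -0.13 (adjusted p = 0.257). The fall in SPM compared to CK kept an adjusted p between 0.00163 and 0.0119 with any 1 library left out and was 0.47 after the GC correction (adjusted p = 0.00239), below the fold limit. Without CK replicate 1 Tie1 fell by 0.55, also below it.

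Tie1 lies on chromosome 4 (GRCm38 as all gene coordinates here, 118471191 to 118490061, minus strand). Its promoter is shown because factors of the ETS family, which bind the core letters GGAA, drive many endothelial genes. The window of 250 bases before to 50 after the RefSeq start (GRCm38.p6, chr4:118489800-118490099, minus strand, written 5′ to 3′ in the direction of the gene) held GGAA 9 times on either strand, in capitals here as GGAA or TTCC:
Tie1: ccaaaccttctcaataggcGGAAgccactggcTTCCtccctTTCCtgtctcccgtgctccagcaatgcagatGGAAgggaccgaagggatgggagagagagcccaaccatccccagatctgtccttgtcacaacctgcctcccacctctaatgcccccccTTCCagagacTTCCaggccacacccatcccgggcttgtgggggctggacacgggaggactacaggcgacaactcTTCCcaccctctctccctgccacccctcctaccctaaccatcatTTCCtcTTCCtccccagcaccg
The letters GGAA stood in 96.0% of 32851 mouse promoter windows of this length, with a median of 3 matches per window. The window of Emcn held them 6 times and those of Egfl7, which has 3 RefSeq starts, 5, 4 and 1 times. No window was at hand for Pecam1, Cdh5, Esam and Vcam1. A match is a run of letters and not a measured binding site.

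Cdh5 (chromosome 8, 104101625 to 104144511, plus strand) fell in 1 of the 3 comparisons. VE-cadherin is the adhesive core of endothelial adherens junctions. Its level was 607, 526 and 507 CPM in CK, 494, 571 and 486 CPM in DCM, while SPM had 411, 438 and 459 CPM. CK and DCM overlapped, and the 3 SPM libraries stood below all others. Cdh5 did not pass the test in DCM compared to CK (-0.08, 95% interval -0.28 to 0.12, adjusted p = 0.652, edgeR) or in SPM compared to DCM (-0.25, adjusted p = 0.065, edgeR), and the latter passed with DESeq2 (adjusted p = 0.0185). From CK to SPM it fell by 0.33 (SE 0.08, adjusted p = 0.0154, edgeR). Without SPM replicate 2 the same fall had an adjusted p of 0.0672 (edgeR), and after the GC correction it was 0.24 (adjusted p = 0.04). Over the 9 libraries the log2 levels of Cdh5 and Tie1 had a Pearson r of 0.91 (Spearman 0.95, and 0.89 for Pearson without SPM replicate 2), a description over libraries that share groups, heart tissue and processing.

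Pecam1 (chromosome 11, 106654217 to 106750628, minus strand) passed no test. PECAM-1 sits at the borders of endothelial cells and also on platelets and leukocytes. Its level was 433, 386 and 408 CPM in CK, 488, 450.1 and 434 CPM in DCM, while SPM had 438, 431 and 438 CPM. The lowest DCM library stood just above the highest CK library, and SPM lay within the DCM range apart from 1 library slightly below it. The differences were 0.16 in DCM compared to CK (95% interval -0.01 to 0.33, adjusted p = 0.223, edgeR), -0.07 in SPM compared to DCM (adjusted p = 0.508) and 0.09 in SPM compared to CK (adjusted p = 0.279). The intervals left no room for a change of the fold limit of 1.5 in Pecam1.

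Esam (chromosome 9, 37528078 to 37538319), Emcn (chromosome 3, 137341067 to 137432185) and Egfl7 (chromosome 2, 26580014 to 26593120), all on the plus strand, likewise passed no test in any comparison. Esam, a tight-junction member of endothelium and platelets, had 145, 120.3 and 119 CPM in CK, 125, 136 and 135 CPM in DCM, while SPM had 119, 118 and 119 CPM, with adjusted p-values of 0.813, 0.123 and 0.318 between CK and DCM, between DCM and SPM and between CK and SPM (edgeR). Emcn, a sialomucin of capillary and venous endothelium, had 72.6, 60.2 and 60.7 CPM in CK, 68.8, 55.2 and 56.4 CPM in DCM, while SPM had 69.7, 69.4 and 68.5 CPM. CK and DCM of Emcn overlapped with 1 high library each. Its difference in SPM compared to DCM was 0.20 (adjusted p = 0.131, edgeR) and -0.12 after the GC correction (adjusted p = 0.419), a change of sign in a gene with 40.7% GC. Without DCM replicate 1 it was 0.30 and passed (adjusted p = 0.0467, edgeR). Egfl7 had 27.7, 25.3 and 24.98 CPM in CK, 29.4, 30.5 and 25.6 CPM in DCM, while SPM had 25.7, 23.5 and 21.7 CPM, and its value of -0.27 in SPM compared to DCM missed the limit (adjusted p = 0.0736, edgeR), which it passed without DCM replicate 3 (-0.35, adjusted p = 0.043) or SPM replicate 1 (-0.34, adjusted p = 0.0487). Egfl7 shares 264 exon bases, 7.37% of its exons, with Gm20532 on the same strand, which had 2884 counts over all libraries, so reads there could be given to either gene.

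Without any scaling between libraries, the identity genes can be read against Pecam1 in the same library, a measure chosen after the levels had been seen. The log2 ratio of Tie1 to Pecam1 counts averaged -0.43 in CK, -0.93 in DCM and -1.15 in SPM, and no libraries overlapped between the groups. That of Cdh5 to Pecam1 averaged 0.42, 0.18 and -0.00 in the same order, and only CK and SPM did not overlap. Emcn to Pecam1 averaged -2.67 in CK, -2.93 in DCM and -2.66 in SPM, with DCM below both without overlap. These ratios do not remove the GC trend, and Emcn has 40.7% GC while Pecam1 has 50.2%. After the GC correction the log2 fold changes of Emcn and Pecam1 in SPM compared to DCM were -0.12 and -0.06. In counts not corrected for GC content, the identity genes thus did not keep 1 ratio to each other across groups. In bulk RNA, fewer endothelial cells and less RNA per cell cannot be told apart for any of them.

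**Figure D3:**
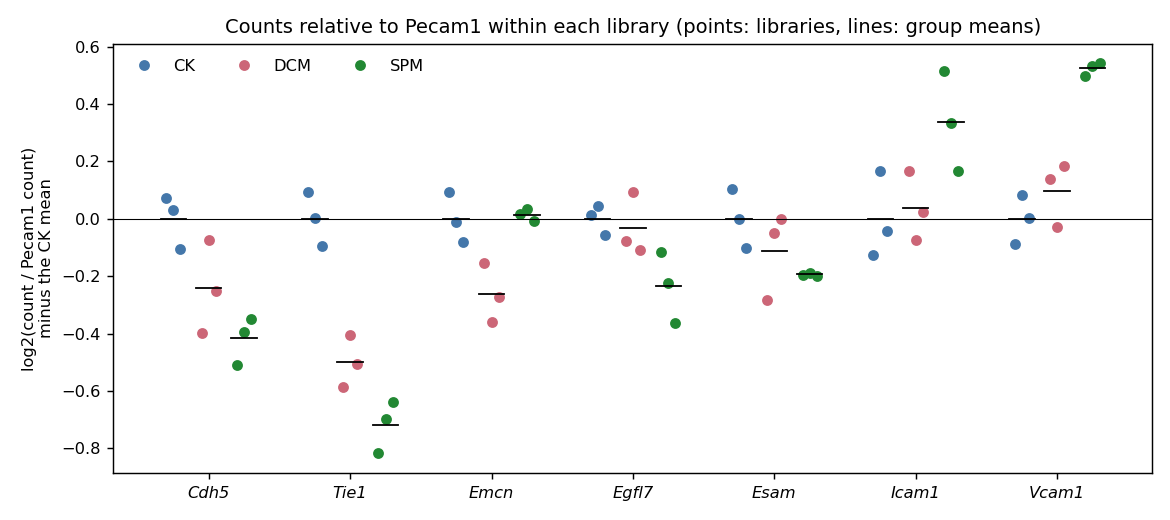
Log2 ratio of each gene's count to the Pecam1 count of the same library, minus its mean in CK (y axis), for 7 genes, with 3 points per group and a line at the group mean. Tie1 points of DCM lie below those of CK and those of SPM below both, the SPM mean of Vcam1 lies 0.53 above CK, and Icam1 overlaps between groups. The ratios are not corrected for GC content. Sele and Selp, with few counts, are not drawn.

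NF-kappa-B, the factor through which cytokines raise the adhesion genes, binds letters of the kind GGNNNTTCC, and these promoters are shown because Icam1 and the selectins are its textbook targets. Each window runs from 250 bases before to 50 after the RefSeq start (GRCm38.p6, plus strand, 5′ to 3′), at chr9:21015690-21015989 for Icam1, chr1:164047984-164048283 for Sele and chr1:164115014-164115313 for Selp. Capitals mark GGNNNTTCC on either strand and the TATA box letters TATAAA:
Icam1: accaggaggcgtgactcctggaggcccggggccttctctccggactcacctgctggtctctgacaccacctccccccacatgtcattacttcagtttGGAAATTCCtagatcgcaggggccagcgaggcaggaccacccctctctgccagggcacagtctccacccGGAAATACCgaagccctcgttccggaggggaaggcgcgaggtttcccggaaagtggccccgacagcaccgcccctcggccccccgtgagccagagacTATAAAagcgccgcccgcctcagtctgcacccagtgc
Sele: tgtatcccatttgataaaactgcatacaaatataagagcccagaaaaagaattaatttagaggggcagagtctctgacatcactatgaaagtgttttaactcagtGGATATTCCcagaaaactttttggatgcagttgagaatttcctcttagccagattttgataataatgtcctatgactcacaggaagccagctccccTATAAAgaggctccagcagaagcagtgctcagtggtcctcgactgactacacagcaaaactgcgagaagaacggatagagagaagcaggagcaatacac
Selp: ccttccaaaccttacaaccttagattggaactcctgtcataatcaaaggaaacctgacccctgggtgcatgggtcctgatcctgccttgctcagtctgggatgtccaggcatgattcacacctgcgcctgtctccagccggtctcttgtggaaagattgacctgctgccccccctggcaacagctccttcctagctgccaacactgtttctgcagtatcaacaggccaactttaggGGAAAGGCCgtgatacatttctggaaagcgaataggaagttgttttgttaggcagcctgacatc
Icam1 held 3 matches to GGNNNTTCC. The stretch at base -153 from the start fits these letters on both strands and counts on each. The last match begins at base -84. Sele held 1 at base -145 and Selp 1 at base -14. Such a match stood in 18.5% of the 32851 windows, and the windows of Tie1 and Emcn held none, while 2 of the 3 windows of Egfl7 held 1 each. TATAAA stood in Sele at base -49 and in Icam1 at base 14, and in 13.6% of all windows. The letters CACCC, which factors of the KLF family bind, stood 3 times in Icam1, 1 time in Selp, 3 times in Tie1 and in 57.5% of all windows. GGNNNTTCC and GGAA overlap, since TTCC is GGAA read on the other strand.

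Among the adhesion genes, Vcam1 (chromosome 3, 116109949 to 116129688, minus strand) rose in both SPM comparisons. VCAM-1 is made by cytokine-activated endothelium and, at a lower level, by fibroblasts, mural cells and some macrophages. The Vcam1 level was 27.5, 27.7 and 27.7 CPM in CK. It was 36.3, 29.8 and 33.3 CPM in DCM. It was 41.9, 42.2 and 43.1 CPM in SPM. No library overlapped between any of the 3 groups, with DCM between CK and SPM. In DCM compared to CK the difference was 0.27 (SE 0.09, 95% interval 0.07 to 0.46), which missed the limit (adjusted p = 0.0813, edgeR) and passed with all 9 libraries in one fit (adjusted p = 0.0457). After the GC correction this difference was 0.29 and just passed (adjusted p = 0.05 as rounded, edgeR). Vcam1 rose in SPM compared to DCM by 0.35 (SE 0.08, 95% interval 0.18 to 0.53, adjusted p = 0.0204, edgeR). From CK to SPM it rose by 0.61 (SE 0.06, 95% interval 0.48 to 0.74, adjusted p = 0.000663, edgeR), 1.53-fold, and was a DEG. Vcam1 has the lowest GC content of the 10 genes, 40.1%. After the GC correction its difference in SPM compared to DCM was 0.02 (adjusted p = 0.893, edgeR), and its rise in SPM compared to CK was 0.31 (adjusted p = 0.0272, edgeR), no longer a DEG. The SPM compared to DCM call was also lost without SPM replicate 2 (0.36, adjusted p = 0.093, edgeR) and without DCM replicate 2 (0.28, adjusted p = 0.0694). That in SPM compared to CK kept an adjusted p of 0.00109 to 0.00732 with any 1 library left out.

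Icam1 (chromosome 9, 21015985 to 21028817, plus strand) passed the test in SPM compared to CK alone. ICAM-1 is the endothelial counter-receptor of LFA-1, the pair of Itgal and Itgb2, and leukocytes carry it too. Its level was 21.8, 23.9 and 21.8 CPM in CK, 30.1, 23.5 and 24.2 CPM in DCM, while SPM had 34.4, 29.9 and 27.1 CPM. DCM overlapped with both other groups, and SPM did not overlap with CK. The rise was 0.43 on the log2 scale, 1.35-fold (SE 0.10, 95% interval 0.21 to 0.65, adjusted p = 0.0134, edgeR). It had an adjusted p of 0.0504 without SPM replicate 2 (rise of 0.446, edgeR) and was 0.55 after the GC correction (adjusted p = 0.00587). Icam1 has 55.4% GC, and the trend across genes in this comparison ran downward with GC content. DCM differed from CK by 0.21 (adjusted p = 0.253, edgeR), and SPM from DCM by 0.23 (adjusted p = 0.184). The antisense gene Gm47079 shares 511 exon bases with Icam1 and had 1 count over all libraries.

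The selectins, both on the plus strand of chromosome 1 (Sele at 164048234 to 164057677 and Selp at 164115264 to 164150026), were the rarest of the 10 genes. P-selectin of endothelium and platelets, Selp, had 1.40, 2.71 and 1.82 CPM in CK, 3.92, 1.73 and 1.99 CPM in DCM, while SPM had 4.25, 3.60 and 2.70 CPM. Those levels came from 44 to 156 counts per library, DCM held 1 high library, and the lowest SPM library lay just under the highest CK library. The largest fitted difference of any of the 10 genes, 0.82 in SPM compared to CK, was that of Selp, and with a 95% interval of 0.16 to 1.48 it missed the limit (adjusted p = 0.0648, edgeR). It passed with DESeq2 (0.82, adjusted p = 0.0437), without CK replicate 2 (1.12, adjusted p = 0.0342, edgeR) and without SPM replicate 3 (0.98, adjusted p = 0.0432, edgeR). E-selectin, Sele, had 2.39, 1.40 and 1.17 CPM in CK, 1.61, 1.32 and 1.03 CPM in DCM, while SPM had 1.66, 1.16 and 1.43 CPM. All groups of Sele overlapped, and its 95% interval in DCM compared to CK ran from -1.10 to 0.47 (adjusted p = 0.65, edgeR), which includes changes past the fold limit in the falling direction.

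Platelets carry P-selectin, PECAM-1 and ESAM as well, and 11 platelet and megakaryocyte genes summed to 33.6 to 42.9 CPM in CK, 26.0 to 43.2 CPM in DCM, while SPM had 33.4 to 38.3 CPM. Their groups overlapped, and of 8 tested 0 passed in DCM compared to CK. From CK to SPM 1 fell, Gp9 of the von Willebrand receptor, by 1.53 (adjusted p = 0.0121, edgeR), where 14.3% of all genes fell. Without SPM replicate 2 Gp9 differed by -1.61 and did not pass (adjusted p = 0.051, edgeR), which left 0 of 8. The part of platelets in the Selp values was not tested.

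Leukocyte genes fell in DCM compared to CK and rose in SPM compared to DCM. In the list of 10 leukocyte genes, 7 of 9 tested fell in DCM compared to CK, with a median of -0.74, and 7 of 9 rose in SPM compared to DCM, with a median of 0.72, while 0 passed in SPM compared to CK. Among all genes tested, 5.11% fell in DCM compared to CK and 8.87% rose in SPM compared to DCM. Cd53, a tetraspanin of leukocytes, had 10.7 ± 1.13 CPM in CK, 6.64 ± 1.58 in DCM and 12.8 ± 3.14 in SPM (SD, n = 3). The 10 genes summed to 169 to 254 CPM in CK, 99.0 to 150.1 CPM in DCM, while SPM had 168 to 244 CPM. DCM stood below both other groups without overlap, whereas Vcam1 and the adhesion sum were lowest in CK. Without SPM replicate 2, 0 of 9 passed in SPM compared to DCM with the same median of 0.72, and after the GC correction 2 did. Since leukocytes carry Icam1 and macrophages some Vcam1, these values stand beside the rises of Icam1 and Vcam1, and their part in them was not tested.

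The leukocyte partners of the adhesion genes rose in SPM compared to DCM more often than they fell. Of 15 ligand genes tested in SPM compared to DCM, 6 rose and 0 fell, with a median of 0.53, where 8.87% of all genes rose and 7.76% fell. Itgb1, 1 of the 6, averaged 355 CPM over the 9 libraries, more than the 10 leukocyte genes summed to in any library. Spn, the sialomucin CD43 that binds E-selectin, rose from 2.78 ± 0.348 CPM in DCM to 8.45 ± 2.49 in SPM (log2 fold change 1.60, adjusted p = 0.00813, edgeR). Itgal, the alpha chain of the ICAM-1 receptor LFA-1, rose from 4.999 ± 1.62 to 9.49 ± 1.32 CPM (0.91, adjusted p = 0.0238), and its partner Itgb2 rose by 0.53 (adjusted p = 0.018). Gcnt1, which builds the sugars that P-selectin reads, rose by 0.80 (adjusted p = 0.019), and Cd177, a neutrophil partner of PECAM-1, rose by 2.46 (adjusted p = 0.0177) from a mean of 0.160 to 0.879 CPM. Itga4, the alpha chain of the VCAM-1 receptor, differed by 1.09 without passing (adjusted p = 0.0744). In DCM compared to CK, 1 of 14 ligand genes fell, Selplg, which encodes PSGL-1, by 0.84 (adjusted p = 0.0294, edgeR), and 0 rose. There 5.11% of all genes fell and 5.28% rose. Without SPM replicate 2, 1 of 15 rose in SPM compared to DCM, Spn by 1.59 (adjusted p = 0.0282, edgeR), whereas Itgal, Itgb2, Gcnt1 and Cd177 had log2 fold changes of 0.87, 0.53, 0.80 and 2.30 at adjusted p-values of 0.0701 to 0.0959. After the GC correction 4 of 15 rose, and Gcnt1 did not pass (0.54, adjusted p = 0.0751).

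Other adhesion molecules of vessels moved in both directions. Of 14 tested, 3 fell and 0 rose in DCM compared to CK, 1 fell in SPM compared to DCM, and 2 rose and 4 fell in SPM compared to CK, where 13.0% of all genes rose and 14.3% fell. Among all genes, 5.11% fell and 5.28% rose in DCM compared to CK, and 7.76% fell and 8.87% rose in SPM compared to DCM. Icam2, the constitutive relative of Icam1 on resting endothelium, fell by 0.53 in DCM compared to CK (adjusted p = 0.00932, edgeR) and by 0.52 in SPM compared to CK (adjusted p = 0.0106). Alcam, a ligand of CD6 on T cells, rose by 0.63 in SPM compared to CK (adjusted p = 0.0434, edgeR) at 2.72 to 4.21 CPM in the group means. It did not pass without SPM replicate 2 (0.67, adjusted p = 0.128, edgeR) or after the GC correction (0.47, adjusted p = 0.0909), and under each of these 0 of 14 rose and 4 fell in SPM compared to CK and 0 passed in SPM compared to DCM. The most abundant of the list, Podxl and Jam2, are a sialomucin and a junction protein.

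Of the pan-endothelial genes more fell than rose, and so did cardiomyocyte, fibroblast and mural genes in SPM compared to CK. Of 31 pan-endothelial genes tested, 0 rose and 6 fell in DCM compared to CK, with a median of -0.18. In SPM compared to DCM 1 rose and 3 fell, with a median of -0.08, and in SPM compared to CK 3 rose and 12 fell, with a median of -0.21. The last counts were 0 and 8 without SPM replicate 2, and 2 and 11 after the GC correction, while those of SPM compared to DCM were 0 and 1 under each. In DCM compared to CK 2 rose and 7 fell after the GC correction. Of all genes tested, 5.11% fell in DCM compared to CK, 7.76% in SPM compared to DCM and 14.3% in SPM compared to CK. In the same order of comparisons 5.28%, 8.87% and 13.0% of all genes rose. Among fibroblast genes 6 of 10 fell and 0 rose in DCM compared to CK, and there 0 of 9 cardiomyocyte and 0 of 12 mural genes passed. From CK to SPM 6 of 9 cardiomyocyte, 6 of 10 fibroblast and 5 of 12 mural genes fell, while 1, 2 and 1 rose. Those falls numbered 1, 5 and 1 without SPM replicate 2, and the rises 0. Whether the endothelial genes differed from these lists was not tested. Tek, the partner receptor of Tie1, fell by 0.33 in DCM compared to CK, from 141 ± 2.18 to 112 ± 0.605 CPM (adjusted p = 0.00653, edgeR), and did not pass in SPM compared to CK (-0.20, adjusted p = 0.0596). Kdr and Eng, the most abundant of the list, encode the main VEGF receptor and a TGF-beta co-receptor, and neither passed a test, with 412 ± 31.7 and 395 ± 40.6 CPM in CK and 356 ± 28.8 and 374 ± 36.4 CPM in SPM. The list summed to 3388 to 3826 CPM in CK, 3214 to 3424 CPM in DCM and, in SPM, 3031 to 3224 CPM, so that DCM overlapped with both other groups and CK and SPM did not overlap.

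Cldn5, the main claudin of endothelial tight junctions, had the largest change of that list in both SPM comparisons. It had 113 ± 19.96 CPM in CK, 103 ± 20.2 in DCM and 46.5 ± 8.43 in SPM, without overlap between SPM and the others. It fell by 1.148 in SPM compared to DCM (SE 0.15, adjusted p = 0.00786, edgeR) and by 1.29 in SPM compared to CK (SE 0.15, adjusted p = 0.00127). Both falls passed without SPM replicate 2 (adjusted p = 0.0217 and 0.00756) and after the GC correction, where they were 0.94 and 1.10 (adjusted p = 0.0185 and 0.00115). Cd93, an endothelial lectin-like receptor, fell by 0.46 in DCM compared to CK (adjusted p = 0.00141) and by 0.62 in SPM compared to CK (adjusted p = 0.0074). Sox7, an endothelial transcription factor, fell by 0.64 in DCM compared to CK (adjusted p = 0.0371), and its relative Sox18 by 0.71 in SPM compared to CK (adjusted p = 0.0206), a call lost without SPM replicate 2 (-0.68, adjusted p = 0.0721) and after the GC correction (-0.51, adjusted p = 0.0568). Calcrl, the receptor of adrenomedullin, rose by 0.73 in SPM compared to DCM (adjusted p = 0.013), and with 37.8% GC it did not pass after the GC correction (0.34, adjusted p = 0.0992) or without SPM replicate 2 (0.76, adjusted p = 0.052).

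The junction partners of Cdh5, Pecam1 and Esam were 16 further genes, Cldn5 among them. In DCM compared to CK 2 fell and 0 rose, in SPM compared to DCM 2 fell and 1 rose, and in SPM compared to CK 4 fell and 2 rose. Among all genes, 5.11%, 7.76% and 14.3% fell and 5.28%, 8.87% and 13.0% rose in the same order of comparisons. The counts without SPM replicate 2 were 1 and 0 in SPM compared to DCM, and 3 and 1 in SPM compared to CK. Jup, plakoglobin, which links cadherins to the cytoskeleton in endothelium and in the intercalated discs of cardiomyocytes, fell by 0.50 in SPM compared to DCM (adjusted p = 0.0111, edgeR), which did not pass without SPM replicate 2 (-0.51, adjusted p = 0.0566). Afdn, afadin, fell by 0.45 in DCM compared to CK (adjusted p = 0.000872) and by 0.66 in SPM compared to CK (adjusted p = 0.00305). Ocln, occludin, rose by 1.19 in SPM compared to CK (adjusted p = 0.0219) at 0.951 ± 0.305 and 2.17 ± 0.329 CPM. The Ocln difference did not pass without SPM replicate 2 (1.22, adjusted p = 0.0841) or after the GC correction (0.96, adjusted p = 0.0509). Jup and Ctnna1, the most abundant partners, are not limited to endothelium.

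By vessel type, 3 of 6 lymphatic, 2 of 6 venous and 1 of 6 endocardial genes rose in DCM compared to CK, where 5.28% of all genes rose. Vwf, the clotting factor stored with P-selectin in endothelial granules, rose from 263 ± 13.1 CPM in CK to 454 ± 98.2 in DCM (0.79, adjusted p = 0.00187, edgeR) and was 413 ± 39.0 in SPM (0.65 above CK, adjusted p = 0.00129). Lrg1, a secreted glycoprotein of activated venules, rose by 0.96 in DCM compared to CK (adjusted p = 1.98e-05) and fell by 0.43 in SPM compared to DCM (adjusted p = 0.0127). That fall was lost without SPM replicate 2 (-0.42, adjusted p = 0.0662, edgeR) and after the GC correction (-0.18, adjusted p = 0.129). Lyve1, the hyaluronan receptor of lymphatics and some macrophages, had 18.8 ± 2.53 CPM in CK, 35.1 ± 1.08 in DCM and 56.4 ± 3.68 in SPM, and rose by 0.90 in DCM compared to CK (adjusted p = 0.00017) and by 0.68 in SPM compared to DCM (adjusted p = 0.00652). Prox1, the defining factor of lymphatic fate, did not pass (0.03 and 0.15, adjusted p = 0.895 and 0.292). Its mean over the 9 libraries was 83.5 CPM beside 36.8 CPM for Lyve1, and which cells gave the Prox1 reads was not tested. The lymphatic genes that rose were Lyve1, Reln and Mmrn1, and 0 fell. The venous genes were Vwf and Lrg1, while 1, Vcan, fell, and the 1 endocardial gene was Npr3 with 0 that fell.

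Capillary genes split. Of 11 tested, 3 rose and 0 fell in DCM compared to CK, 0 rose and 5 fell in SPM compared to DCM, and 3 rose and 5 fell in SPM compared to CK. Among all genes, 5.28%, 8.87% and 13.0% rose and 5.11%, 7.76% and 14.3% fell in the same order of comparisons. Aqp1, the water channel of heart capillaries, had 1013 ± 44.4 CPM in CK, 885 ± 122.9 in DCM and 625 ± 4.46 in SPM, and fell by 0.70 in SPM compared to CK (SE 0.05, adjusted p = 0.00036, edgeR) and by 0.59 after the GC correction. The factors Tcf15 and Meox2, which drive fatty acid uptake in heart endothelium, fell by 0.91 and 0.84 in SPM compared to CK (adjusted p = 0.00616 and 0.00184). The 3 that rose there were Cd36 by 0.49, Rgcc by 0.45 and Car4 by 0.24 (adjusted p = 0.00126, 0.0018 and 0.0164, edgeR). Fabp4, with Cd36 the most abundant of the list, did not pass (0.02, adjusted p = 0.846). After the GC correction 2 capillary genes rose and 3 fell in SPM compared to CK. Of 12 arterial genes tested, 2 rose and 0 fell in DCM compared to CK, and 0 rose and 3 fell in SPM compared to DCM, among them the Notch target Hey1 by 0.63 (adjusted p = 0.0231). Without SPM replicate 2, 0 of the capillary and 0 of the arterial genes passed in SPM compared to DCM, with medians of -0.30 and -0.11 beside -0.30 and -0.13 with it, and Hey1 differed by -0.66 (adjusted p = 0.0735, edgeR). After the GC correction 3 capillary genes and 0 arterial genes fell, and Hey1 differed by -0.57 (adjusted p = 0.0588). From CK to SPM 2 capillary genes rose and 3 fell without SPM replicate 2, the latter being Aqp1, Tcf15 and Meox2 (adjusted p = 0.00333, 0.0255 and 0.0135, edgeR).

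**Figure D4:**
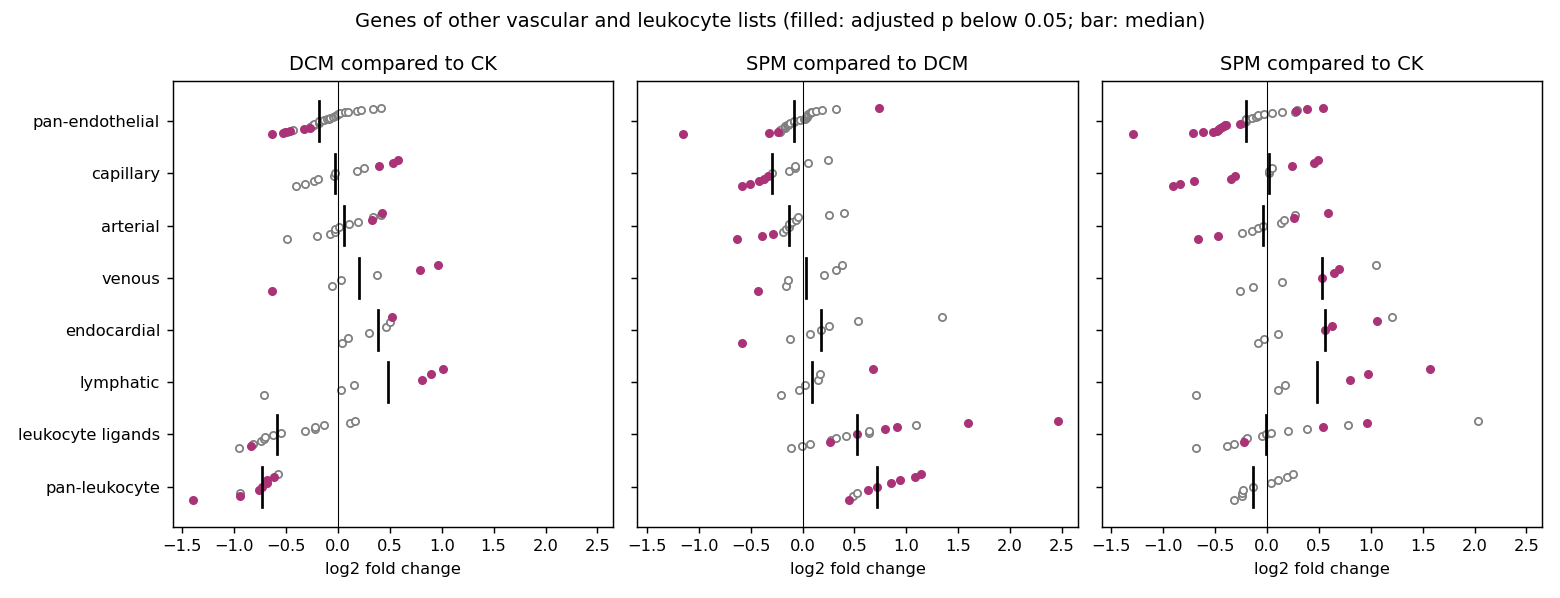
Log2 fold change (x axis) of the genes of 6 endothelial lists, the leukocyte ligands and the leukocyte genes in each comparison, 1 point per gene tested, filled at an adjusted p below 0.05, with a bar at the median. The leukocyte medians are -0.74 in DCM compared to CK and 0.72 in SPM compared to DCM, while the lymphatic median is 0.48 in DCM compared to CK.

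Regulators of the adhesion genes did not move as 1 group. Of 16 genes of NF-kappa-B and cytokine signalling tested in DCM compared to CK, 1 rose and 3 fell, beside 5.28% and 5.11% of all genes. In SPM compared to DCM 2 rose and 0 fell, beside 8.87% and 7.76% of all genes. In SPM compared to CK 3 of 17 rose and 3 fell, where 13.0% of all genes rose and 14.3% fell. Leaving out SPM replicate 2, 0 passed in SPM compared to DCM, and 2 rose and 1 fell in SPM compared to CK. After the GC correction 1 rose in SPM compared to DCM, and 2 rose and 2 fell in SPM compared to CK. Nfkbia, the inhibitor that NF-kappa-B itself induces, rose from 70.2 ± 7.45 CPM in CK to 106.3 ± 17.3 in DCM (0.60, adjusted p = 0.00502, edgeR) and was 109.7 ± 16.8 in SPM (0.64 above CK, adjusted p = 0.0059). Tnfaip2, a gene induced by tumour necrosis factor, fell by 0.40 in DCM compared to CK (adjusted p = 0.0208) and by 0.71 in SPM compared to CK (adjusted p = 0.0111). Tnfrsf1a, the main receptor of that cytokine, was the most abundant of the list after Nfkbia.

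Of 11 genes of the flow response, 0 passed in DCM compared to CK, whereas in SPM compared to DCM 4 rose and 3 fell, where 8.87% of all genes rose and 7.76% fell. Klf2 had 156 ± 14.6 CPM in CK, 173 ± 25.6 in DCM and 122.5 ± 19.2 in SPM, and fell by 0.50 in SPM compared to DCM (adjusted p = 0.0275, edgeR). Klf4 had 77.3 ± 13.6, 74.6 ± 12.5 and 51.5 ± 11.6 CPM in the same order and fell by 0.54 in SPM compared to DCM (adjusted p = 0.0431) and by 0.59 in SPM compared to CK (adjusted p = 0.0337). Edn1, the vasoconstrictor endothelin-1, rose by 0.84 in SPM compared to DCM (adjusted p = 0.0364). Of the other genes that passed there, Mef2a, Mef2c and Palmd rose by 0.58, 0.35 and 0.27 (adjusted p = 0.0305, 0.0185 and 0.0263, edgeR). Mef2d fell by 0.27 (adjusted p = 0.0302, edgeR). After the GC correction 0 of the 11 passed in SPM compared to DCM, and without SPM replicate 2 likewise 0, where Klf2, Klf4 and Edn1 differed by -0.50, -0.53 and 0.91 (adjusted p = 0.0871, 0.117 and 0.0872, edgeR). The fall of Klf4 in SPM compared to CK was lost under both, at -0.59 without that library (adjusted p = 0.0941) and -0.48 after the correction (adjusted p = 0.0869).

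The GC trend touched the 10 genes unequally. In SPM compared to DCM the values of Vcam1 and Emcn, at 40.1% and 40.7% GC, dropped from 0.35 to 0.02 and from 0.20 to -0.12 after the correction. Those of Tie1 and Egfl7, at 57.6% and 57.0% GC, moved from -0.29 to -0.13 and from -0.27 to -0.12. Icam1, at 55.4%, moved away from 0, from 0.23 to 0.35, without passing (adjusted p = 0.0945, edgeR). Pecam1, Cdh5, Selp and Sele, between 47.5% and 52.2%, moved by less than 0.10. Whether the GC trend belongs to the libraries or to the hearts was not tested.

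**Figure D5:**
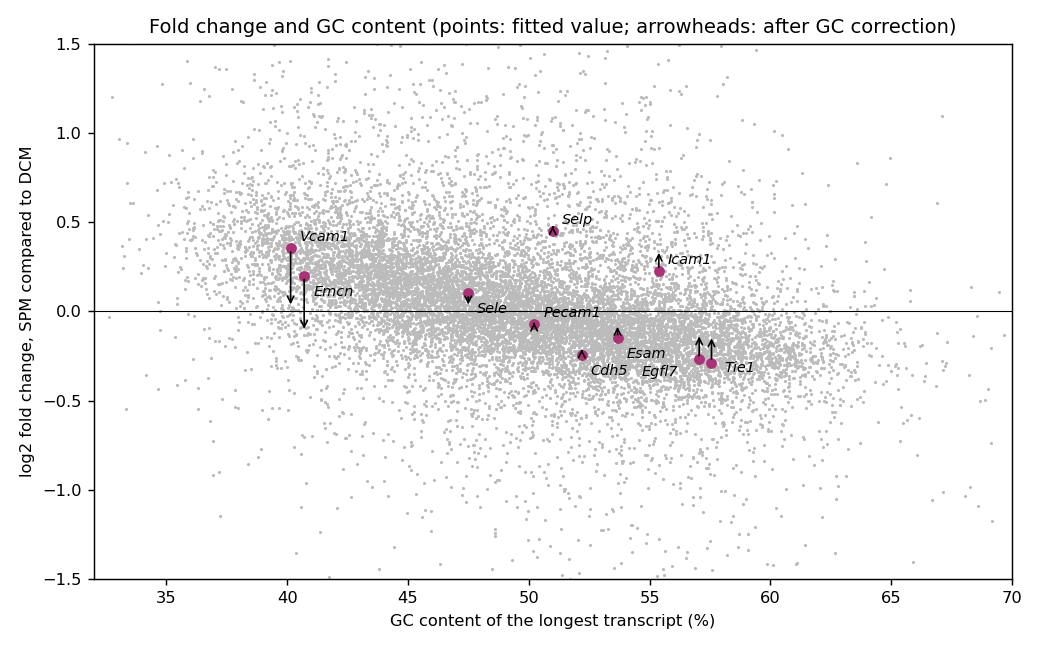
Log2 fold change in SPM compared to DCM (y axis) against the GC content of the longest transcript in percent (x axis) for 14313 genes, with the 10 genes as large points and arrowheads at their values after the GC correction. Grey points slope downward, Vcam1 and Emcn at the left drop to 0.02 and -0.12, and Tie1 and Egfl7 at the right move up. 171 genes outside the axes are not drawn.

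Across the 9 libraries the adhesion genes other than Sele resembled each other. Pearson's r of log2 levels was 0.93 between Icam1 and Selp, 0.86 between Icam1 and Vcam1 and 0.76 between Vcam1 and Selp. Sele had r between -0.13 and 0.66 with the other 9 genes, the highest with Emcn. Tie1 ran opposite to Vcam1 (r = -0.91) and to Icam1 (-0.84), and Cdh5 likewise (-0.85 and -0.83), whereas Pecam1 had r of -0.09 with Cdh5 and -0.32 with Tie1. Each value rests on the same 9 libraries in 3 groups, and groups, GC trend and processing are shared by all genes. Of 14908 genes compared, those most like each of the 10 were Rapgef1, Fscn1 and Islr for Tie1 (r of 0.991, 0.991 and 0.99), Clec1a, Hpse and Plekha3 for Vcam1 (0.992, 0.975 and 0.968), and Gtf3a, Coq4 and Plcb3 for Cdh5 (0.983, 0.98 and 0.978). For Icam1 they were Tpt1-ps3, Usp3 and Tuft1 (0.983, 0.972 and 0.97), for Selp Net1, Zfp280d and Tmem69 (0.958, 0.95 and 0.949), and for Sele H2-M3, Necap2 and Slc8b1 (0.966, 0.924 and 0.907). For Pecam1 they were Sdhc, Igfbp4 and Kazald1 (0.962, 0.962 and 0.955), for Esam Nol4l, Nagk and Mad2l2 (0.956, 0.953 and 0.932), for Emcn Zcchc10, Gorab and Mbd4 (0.934, 0.928 and 0.922), and for Egfl7 Eif3k, Cox6b1 and Exosc5 (0.992, 0.989 and 0.989).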

How the data were processed

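Heart RNA was sequenced in 9 libraries, 3 each of CK, DCM and SPM, grouped by their deposited titles. The files the authors deposited hold raw counts by gene for each library, made from reads filtered with fastp. Their deposited FPKM values are those counts over a fixed gene length and the library total (largest relative deviation 6.8e-13). The submitters' processing notes name Bowtie 0.12.2, mm8 and mm9 without a role, and how reads were counted and on which strand is not given in the sources used here. Of 22851 gene identifiers, 22820 are in GENCODE M21 (GRCm38) and 31 stayed unnamed. The lengths behind FPKM lay within 1 base of the longest M21 transcript for 22315 genes, all 10 genes included, so names, places and GC content come from M21. Promoter windows come from RefSeq (GRCm38.p6) and matched 6 of the 10 genes.

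Each pair of groups was fitted on its own 6 libraries with edgeR 4.0.16 (R 4.3.3, quasi-likelihood test) after filterByExpr and TMM normalization, with a Benjamini-Hochberg adjusted p of 0.05 over all genes and a fold change of 1.5 for DEGs. The standard error is the log2 fold change divided by the square root of F. The steps were tested on simulated data. Correlations used log2 CPM with a prior count of 2. As alternatives, the fold limit was 1.3 or none, DESeq2 1.42.0 or RLE normalization was used, the filter was none or 1 CPM in 3 libraries, the fit held all 9 libraries or a replicate block, and further settings were limma 3.58.1 on log2 of FPKM plus 0.1 or 1, no mitochondrial genes, a GC offset per library (lowess span 0.3), and each library left out. Ratios to Pecam1 and the lists without SPM replicate 2 or under the GC offset were added after the data were examined. Figures used Python 3.11.15, pandas 2.3.3 and matplotlib 3.10.9.

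The 10 genes and the gene lists were chosen with earlier results of these data known. Named genes were all 10, the 2 most abundant genes of each other list, its 3 DEGs with the largest change per comparison, and the 3 genes most like each of the 10. Tek, Itgb2, Itga4, Klf2 and Icam2 were named for their known link to the 10 after their values were seen. Rgcc, Car4, Mef2c and Palmd were also named after their values were seen, as genes that rose in lists with other named members. Some list genes were not analysed here, and genes of 2 lists (Cldn5, Cd34, Icam2, Jam2 and others) count in both. Intervals of 95% are those of the fitted log2 fold change between 2 groups, from its standard error and the t distribution. Since SPM replicate 2 resembled a mixture of the other SPM libraries, the SDs and intervals that include SPM may be too narrow. The p-values and adjusted p-values of the SPM comparisons may likewise be too small, and the shares of all genes that pass there too high.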

Additional observations from a re-analysis of the deposited data

How the results depend on the processing

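Under the alternatives no log2 fold change of the 10 genes that passed a test changed sign, 456 values stayed on their side of the limit, 13 lost it and 11 gained it. Counts of the 10 genes moved as follows, and the cause was not tested unless the setting itself shows it. In DCM compared to CK the DEGs were 1 in place of 0 without a fold limit, and genes at an adjusted p below 0.05 were 2 in place of 1 with all 9 libraries in one fit and after the GC correction, and 0 to 1 with any 1 library left out. In SPM compared to DCM the DEGs were 2 in place of 0 without a fold limit, and genes past the adjusted p were 3 in place of 2 with DESeq2, which added Cdh5, 0 after the GC correction and 0 to 3 with any 1 library left out. In SPM compared to CK the DEGs were 4 in place of 2 without a fold limit, 3 at 1.3-fold, which added Icam1, 3 with DESeq2, which added Selp, 1 with limma on FPKM plus 0.1 or plus 1, 0 after the GC correction and 1 to 3 with any 1 library left out, and genes past the adjusted p were 5 in place of 4 with DESeq2 and 2 to 5 with any 1 library left out, 2 without SPM replicate 2.

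Replicate numbers did not pair the libraries, since deviations of libraries with the same number had r between -0.075 and 0.205 and those of other numbers between -0.284 and 0.217. With a replicate block, 4 of the 10 genes passed the adjusted p in SPM compared to DCM in place of 2, Cdh5 (-0.25, adjusted p = 0.0456, edgeR) and Egfl7 (-0.27, adjusted p = 0.0459) being added. The intervals of Sele and Selp span more than the fold limit. They rest on 35 to 75 and 44 to 156 counts per library and hold the spread between libraries, for Selp 1.98 ± 0.666 CPM in CK and 2.55 ± 1.197 in DCM, beside the counting error.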
